A study of Mus musculus with 6 samples.

Results

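The NMDA receptor subunits are encoded in the mouse by 7 genes, Grin1, Grin2a, Grin2b, Grin2c, Grin2d, Grin3a and Grin3b, which were taken by name from the 24421 genes of the count table and were all present in it. The samples were sorted nuclei of Foxp2-positive neurons from the medial prefrontal cortex (mPFC), with 3 libraries from mice given CFA and 3 from mice given saline. Complete Freund's adjuvant (CFA) is injected in rodents to cause inflammation and long-lasting pain, and the study set this pain condition against a saline control. Mice of both groups were Foxp2-Cre and had received, on both sides of the mPFC and 4 weeks before collection, an adeno-associated virus (AAV) for KASH-GFP, a GFP held at the nuclear envelope by which the nuclei were labelled. Each library was made from polyadenylated RNA of 10000 nuclei. The labels do not give the interval between CFA and collection, nor whether replicates are different animals. The p-values therefore reflect how far these libraries spread, and some of that spread may be technical.

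NMDA receptors made of GluN1 and GluN2 subunits are glutamate-gated channels that pass calcium. They open only when glutamate and a co-agonist, glycine or D-serine, are bound and depolarisation has relieved block by magnesium. Each NMDA receptor is a tetramer that contains the obligatory GluN1 subunit (Grin1) together with GluN2 or GluN3 subunits. GluN2 subunits (Grin2a to Grin2d) bind glutamate and set the channel's kinetics. GluN3 subunits (Grin3a and Grin3b) bind glycine and lower calcium permeability. In the rodent forebrain GluN2B predominates early in life and GluN2A increases with maturation, and receptors of prefrontal and cingulate pyramidal neurons are widely studied in lasting pain.

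The GluN2 genes are paralogs, so stretches that their coding sequences share are places where a short read could be assigned to the wrong gene. In the GENCODE transcripts the longest run of bases identical between any 2 of the 7 coding sequences was 34 bases, between Grin2b and Grin2c. The next longest shared runs were 32 bases (Grin2c and Grin2d), 28 bases (Grin2a and Grin2d) and 24 bases (Grin2a and Grin2b). Grin1 shared no run longer than 14 bases with any other subunit gene, and Grin3a and Grin3b shared 23 bases with each other. The read length is not given in the sources used here, so whether such runs moved any read between genes was not tested.

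The counted gene models differed in how much of each transcript they covered, which bears on every level below. The model of Grin1 (chromosome 2, 25291177 to 25319187, 4372 exon bases) contained 100% of the exon bases of the coding transcripts that GENCODE lists. Those of Grin2a (chromosome 16, 9577710 to 9992533, 4512 bases) and Grin2b (chromosome 6, 135729805 to 136173511, 7505 bases) contained 30.1% and 30.3%, because GENCODE extends the 3′ untranslated exon by 9812 and 16572 bases past the end of the model. For Grin2d (chromosome 7, 45832483 to 45866681) the share was 65.8%, and for Grin2c (chromosome 11, 115249169 to 115267243), Grin3a (chromosome 4, 49661611 to 49845769) and Grin3b (chromosome 10, 79970724 to 79977190) it was 97.2%, 100% and 99.3%. Of the Grin1 exon bases 29.9% (1307 bases) also belong to Grin1os, an antisense transcript on the opposite strand. The library kit does not mark strand, so reads of the pair cannot be told apart there. Grin1os itself had 38, 32 and 32 counts in CFA replicates 1, 2 and 3 and 20, 7 and 46 counts in saline replicates 1, 2 and 3.

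Total counts were 10663201 to 11850741 in the CFA libraries and 9673038 to 11117681 in the saline libraries. Foxp2 ranged over 24.0 to 34.9 CPM (the count relative to library size, with TMM scaling) in CFA libraries and 28.3 to 43.7 CPM in saline libraries. All 8 corticothalamic markers looked at, including Tle4, Hs3st4 and Tbr1, were detected in every library. Their sums were 822 to 964 CPM in CFA and 826 to 1102 CPM in saline. Of the 8, 2 were positive and 6 negative (median log2 fold change -0.16), and 0 were called by edgeR. For 1 of the 8, Ntsr1, the groups did not overlap, against 7.51% of all genes. Ntsr1 was at 11.6 to 15.6 CPM in CFA and 18.8 to 22.8 CPM in saline (edgeR, unadjusted p 0.0367). Markers of other cells were also detected. For 6 upper layer and intratelencephalic markers the sums were 360 to 410 CPM in CFA and 315 to 362 CPM in saline. For 7 oligodendrocyte markers they were 308 to 480 CPM and 341 to 435 CPM, and for 5 vascular markers 2.88 to 7.74 CPM and 3.04 to 9.04 CPM. Each of these sums overlapped between the groups. The summed level of 9 astrocyte markers was 236 to 324 CPM in CFA and 203 to 213 CPM in saline, so the groups did not overlap. That separation of the sums rested on Aldoc, the most abundant of them. The other 8 summed to 85.3 to 115 CPM in CFA and 75.6 to 94.3 CPM in saline, which overlapped. Of the 9 markers 5 were positive and 4 negative, and 0 were called by edgeR. For 3 of them, Aldoc, Slc1a3 and Fgfr3, CFA was higher without overlap and the unadjusted p was under 0.05 (edgeR). Over all genes 7.51% did not overlap and 3.22% had such a p. For 9 inhibitory interneuron markers the sums were 136 to 211 CPM and 136 to 208 CPM, for 9 microglia markers 94.6 to 153 CPM and 76.1 to 110 CPM, and for 6 oligodendrocyte precursor markers 30.8 to 43.7 CPM and 18.4 to 27.7 CPM. In the interneuron list 8 markers were positive and 1 negative (median log2 fold change 0.23), and in the microglia list also 8 and 1 (median 0.67). By edgeR 1 interneuron marker, lower in CFA, and 1 microglia marker, higher in CFA, had an unadjusted p under 0.05. In both lists 0 were called. The precursor sums did not overlap with Olig1 and overlapped without it (13.1 to 19.8 CPM in CFA and 5.37 to 14.0 CPM in saline). Of the 5 precursor markers tested, 3 did not overlap between groups, against 7.51% of all genes. Olig1 and Gpr17 were higher in CFA and Cspg4 was lower, and 0 of the 5 were called by edgeR. Sums of 9 striatal projection neuron markers were 246 to 430 CPM in CFA and 357 to 911 CPM in saline and overlapped. All 8 striatal markers tested had negative estimates (median log2 fold change -1.03). By edgeR 6 of the 8 had an unadjusted p under 0.05, against 3.22% of all genes. None of the 8 was called, as was no gene in all. The sums without the most abundant marker were computed after the values were seen, and Slc1a3, Fgfr3, Gpr17, Cspg4 and Ntsr1 were named then. Saline replicate 3 stood apart from the other saline libraries. The chi-square per degree of freedom of its counts against them was 45.9 and 43.3, against 19.7 between those libraries. Against CFA replicates 1, 2 and 3 that of saline replicate 3 was 22.1, 32.9 and 38.6, in each case lower than against either saline library. In such pooled nuclei, fewer cells of a type and less RNA per cell cannot be told apart.

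Per exon length, Grin1 was the most abundant subunit transcript in all 6 libraries, followed by Grin2b, Grin2a, Grin3a, Grin2d, Grin2c and Grin3b. Grin1 averaged 72.7 ± 12.1 RPKM in CFA and 64.2 ± 6.45 RPKM in saline (SD, n = 3 each), where RPKM is the CPM value per kilobase of the deposited exon model. Grin2b was at 28.2 ± 7.77 RPKM in CFA and 34.9 ± 1.46 RPKM in saline, and Grin2a at 4.96 ± 0.838 and 5.77 ± 1.55 RPKM. Over the 6 libraries the mean level of Grin1 was 2.17 times that of Grin2b, and that of Grin2b was 5.89 times that of Grin2a.

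At the steps from Grin1 to Grin2b, Grin2b to Grin2a, Grin2a to Grin3a and Grin2d to Grin2c the ranges over libraries did not overlap. In each the lowest value of the first gene was above the highest of the second. Grin3a, at 3.18 ± 0.234 RPKM in CFA and 2.68 ± 0.768 RPKM in saline, overlapped with Grin2d, at 1.66 ± 0.351 and 1.47 ± 0.139 RPKM, although Grin3a was the higher in all 6 libraries when compared within a library. Grin2c and Grin3b also overlapped, and Grin2c was the higher in 4 of 6 libraries. Among the 13560 genes tested, Grin1 stood at the 90.8 percentile of mean RPKM and Grin2b at the 78.4 percentile, while Grin2a, Grin3a and Grin2d stood at the 35.4, 24.8 and 15.8 percentiles. By CPM, which takes no account of length, Grin2b stood at the 94.5 and Grin3a at the 41.8 percentile. Since the models of Grin2a and Grin2b leave out most of their 3′ untranslated exons, their levels rest on even coverage along the transcript, which was not tested. How reads in the 29.9% of Grin1 exon bases shared with Grin1os were counted is not given. Its effect on the level of Grin1, and on shares and ratios that use it, was not tested.

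**Figure D1:**
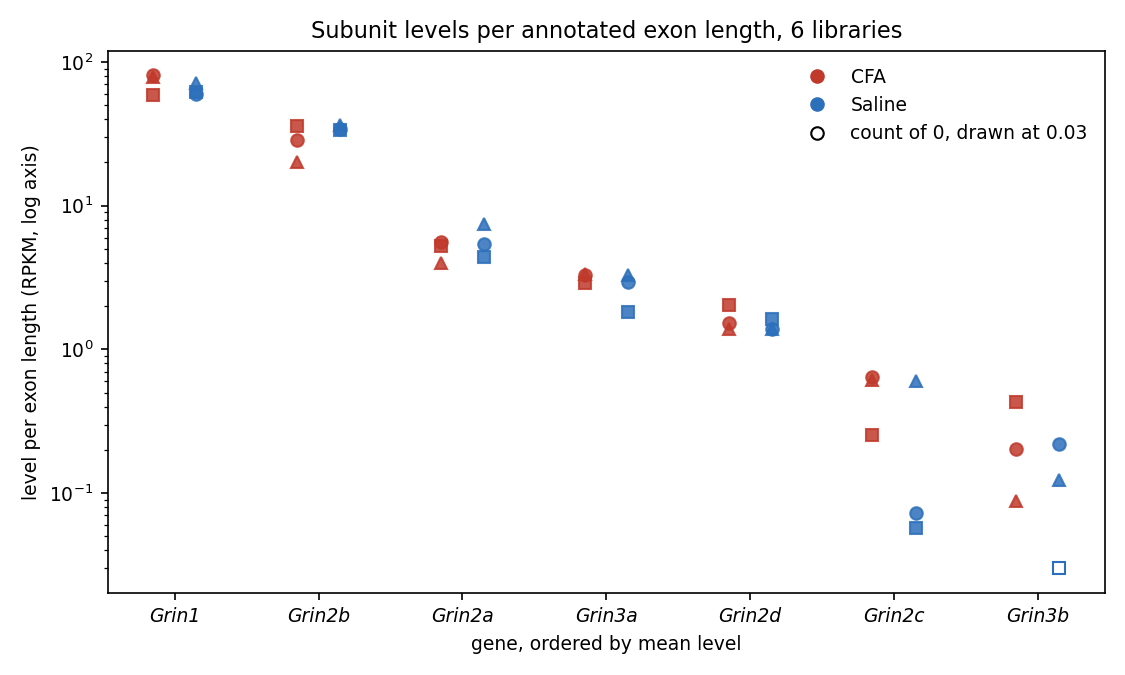
Level per annotated exon length (RPKM, log axis) of the 7 subunit genes in each of the 6 libraries, with CFA in red left of saline in blue and marker shape giving the replicate (circle 1, square 2, triangle 3). Grin1 and Grin2b lie above all other subunits in every library, and the open symbol is the 1 library with no Grin3b count.

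The comparison of CFA with saline asked whether these transcripts differed between mice in the pain condition and controls. No subunit gene passed the test. Of the 7 genes, 6 passed the filter on low counts and 0 were called at an adjusted p of 0.05 by the quasi-likelihood test of edgeR (Benjamini-Hochberg, over all 13560 genes tested), as were 0 (0%) of all genes. An unadjusted p under 0.05 was found for 0 of the 6 and for 437 genes in all (3.22%). The CFA and saline values of all 6 overlapped, whereas 1019 of all genes tested (7.51%) did not overlap. Estimates were positive for 4 genes and negative for 2, with a median log2 fold change of 0.18 against a median of -0.0011 over all genes.

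**Figure D2:**
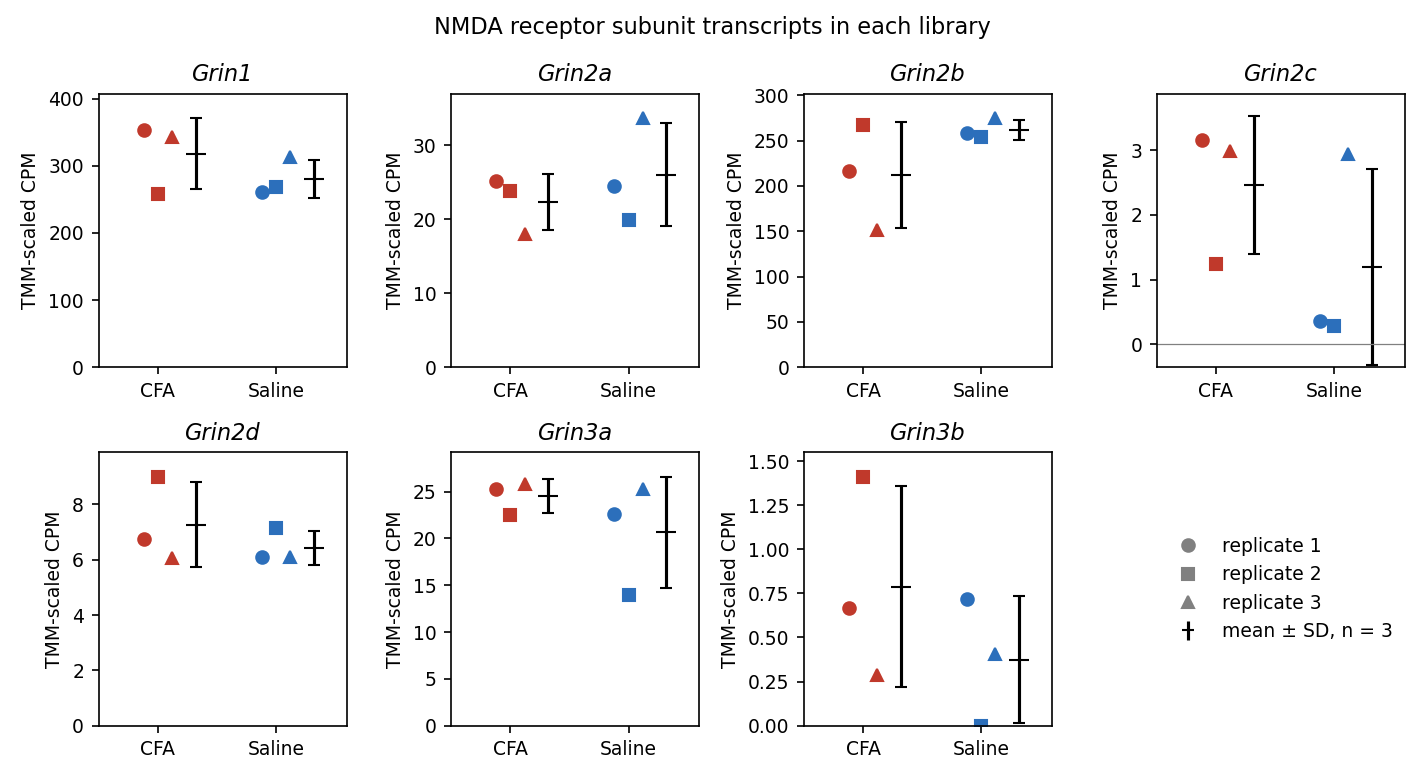
TMM-scaled CPM of each subunit gene in the CFA (red) and saline (blue) libraries on linear axes, 1 point per library, with the mean ± SD (n = 3) in black. The groups overlap for every gene. Grin2b lies between 254 and 274 CPM in the saline libraries and between 151 and 268 CPM in the CFA libraries.

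Grin1, the subunit that every NMDA receptor needs, was at 353, 257 and 343 CPM in CFA replicates 1, 2 and 3 and at 260, 269 and 313 CPM in saline replicates 1, 2 and 3. CFA replicates 1 and 3 were the highest of all libraries and CFA replicate 2 was the lowest. The log2 fold change was 0.18 ± 0.18 (SE), with a 95% interval from -0.21 to 0.56, that is from 0.867-fold to 1.48-fold, and it was 0.27 without saline replicate 3. Leaving out CFA replicate 1 gave 0.092 and leaving out CFA replicate 2 gave 0.31. Here and for the other 5 genes tested, edgeR gave an adjusted p that rounds to 1.

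Grin2b encodes GluN2B, the slowly deactivating GluN2 subunit that also anchors CaMKII at the synapse. CFA replicates 1, 2 and 3 had 216, 268 and 151 CPM, and saline replicates 1, 2 and 3 had 258, 254 and 274 CPM. The saline values were close together, while CFA replicate 3 was far below and CFA replicate 2 within their range. Its log2 fold change was -0.31 ± 0.20 (95% interval from -0.74 to 0.12). Leaving out CFA replicate 2 gave -0.51 (edgeR, unadjusted p 0.0348, adjusted p 1), leaving out CFA replicate 3 gave -0.11, and leaving out saline replicate 3 gave -0.27.

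Grin2a encodes GluN2A, the faster subunit of mature forebrain synapses. Its values were 25.2, 23.8 and 18.1 CPM in CFA and 24.5, 19.9 and 33.6 CPM in saline. The highest value was that of saline replicate 3 and the lowest that of CFA replicate 3. On the log2 scale the fold change was -0.22 ± 0.26 (95% interval from -0.76 to 0.33), and it was 0.012 without saline replicate 3, so the direction rested on that library.

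Grin2d encodes GluN2D, whose very slow channels are known mainly from interneurons and from early development. It was at 6.74, 8.99 and 6.06 CPM in CFA (81, 102 and 63 counts) and 6.08, 7.14 and 6.08 CPM in saline (68, 77 and 60 counts). CFA replicate 2 was the highest and the other 5 libraries lay close together. The log2 fold change was 0.17 ± 0.38 (95% interval from -0.64 to 0.99). It was -0.0079 without CFA replicate 2, so its direction rested on that library, and 0.14 without saline replicate 3. All 9 interneuron markers were detected in every library, with sums of 211, 211 and 136 CPM in CFA and 208, 156 and 136 CPM in saline, and the part of interneuron RNA in the Grin2d value was not tested.

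Grin2c encodes GluN2C, the subunit of cerebellar granule cells that is also transcribed in astrocytes. It was near the limit of detection: there were 38, 14 and 31 counts (3.16, 1.23 and 2.98 CPM) in CFA and 4, 3 and 29 counts (0.358, 0.278 and 2.94 CPM) in saline. Saline replicates 1 and 2 were low, and saline replicate 3 was at the level of CFA replicates 1 and 3. Saline replicate 2 was at the floor of 3 counts, which is 0.278 CPM in that library. The log2 fold change was 1.05 ± 0.90, with a 95% interval from -0.87 to 2.98.

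Without saline replicate 3 the log2 fold change of Grin2c was 2.91 (edgeR, unadjusted p 0.0134, adjusted p 0.579). In that fit 935 of 13854 genes tested had an unadjusted p under 0.05 (edgeR), against 437 of 13560 with all 6 libraries. Without saline replicate 2 the log2 fold change of Grin2c was 0.59. All 9 astrocyte markers were detected in every library, with sums of 270, 324 and 236 CPM in CFA and 213, 210 and 203 CPM in saline. Without Aldoc the sums were 102, 115 and 85.3 CPM in CFA and 82.1, 75.6 and 94.3 CPM in saline. CFA replicate 2, where Grin2c was at 1.23 CPM, had the highest sum either way. Saline replicate 3, where Grin2c was at 2.94 CPM, had the lowest sum with Aldoc and the highest of the saline sums without it. The part of astrocyte RNA in the Grin2c value was not tested.

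Grin3a encodes GluN3A, which lowers calcium entry and is known to restrain synapse maturation. It was at 25.3, 22.5 and 25.9 CPM in CFA and 22.6, 14.0 and 25.3 CPM in saline. Only saline replicate 2 stood below the rest. The log2 fold change was 0.25 ± 0.26 (95% interval from -0.30 to 0.80), and it was 0.036 without saline replicate 2 and 0.42 without saline replicate 3.

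Grin3b encodes GluN3B, known from motor neurons of the brainstem and spinal cord. CFA replicates had 8, 16 and 3 counts and saline replicates 8, 0 and 4 counts, and the gene did not pass the filter on low counts. Summed over libraries it was at 0.800 CPM in CFA (exact Poisson 95% interval 0.527 to 1.16) and 0.377 CPM in saline (0.195 to 0.659), intervals that cover counting error only. A count of 0 in saline replicate 2 allows up to 0.278 CPM. Without the filter its log2 fold change was 1.06 ± 1.41. Of its exon bases 71 also belong to Tmem259 on the opposite strand.

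**Figure D3:**
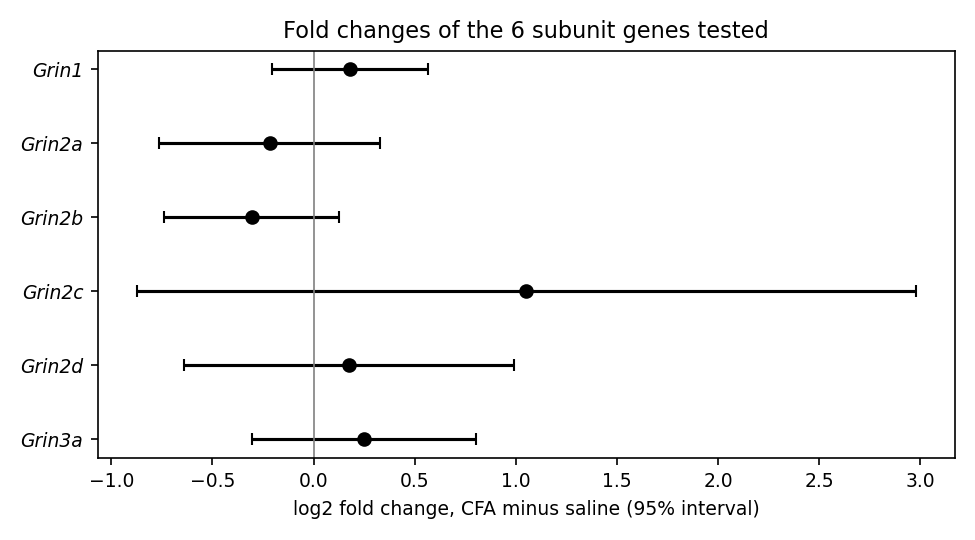
Log2 fold change of CFA over saline (x axis) with its 95% interval for the 6 subunit genes tested. Every interval includes 0, from the narrowest for Grin1 (-0.21 to 0.56) to the widest for Grin2c (-0.87 to 2.98).

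The makeup of the subunit pool was compared within libraries, where scaling between libraries cancels. Grin1 made up 66.8%, 55.8% and 72.6% of the summed per-length level of the 7 genes in CFA and 57.3%, 59.6% and 59.1% in saline. Grin2b made up 23.9%, 33.8% and 18.6% in CFA and 33.1%, 32.7% and 30.2% in saline. In CFA replicates 1 and 3 the share of Grin1 was above, and that of Grin2b below, the range of the saline libraries, and in CFA replicate 2 the order was the other way round. Among the 4 GluN2 genes alone, Grin2b held 77.1% to 82.5% in CFA and 79.5% to 84.7% in saline, and Grin2a held 12.2% to 15.3% in CFA and 11.1% to 16.2% in saline. Grin2d held 4.20%, 4.75% and 5.28% in CFA and 3.36%, 4.08% and 3.02% in saline. This share did not overlap between the groups, and it was singled out after its values were seen and was not tested.

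The Grin2b to Grin1 ratio, the level of the main GluN2 transcript per obligatory subunit, was 0.357, 0.606 and 0.257 in CFA replicates 1, 2 and 3 and 0.577, 0.550 and 0.511 in saline replicates 1, 2 and 3. On the log2 scale the mean was -1.39 ± 0.63 in CFA and -0.88 ± 0.088 in saline (SD, n = 3 each), a difference of -0.52 (two-sided exact permutation test, p = 0.4). The ratio varied more among the CFA than among the saline libraries, and this difference in spread was not tested. Without CFA replicate 2 the difference was -0.85 and the groups did not overlap, without CFA replicate 3 it was -0.23, and without saline replicate 3 it was -0.56.

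The Grin2a to Grin2b ratio, which is used as a measure of receptor maturity, was 0.194, 0.148 and 0.199 in CFA and 0.158, 0.131 and 0.204 in saline. The log2 difference was 0.14 (two-sided exact permutation test, p = 0.7). For Grin2a to Grin1 the log2 difference was -0.37 (exact permutation p = 0.2) and for Grin3a to Grin1 it was 0.12 (exact permutation p = 0.8). Adjusted over the 4 ratios, each exact permutation p was 0.8, and 3 against 3 libraries cannot give an unadjusted p below 0.1. Without saline replicate 3 the differences were 0.31 for Grin2a to Grin2b, -0.25 for Grin2a to Grin1 and 0.21 for Grin3a to Grin1. The Grin2a to Grin1 difference was -0.57 without CFA replicate 2 and -0.16 without CFA replicate 3.

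**Figure D4:**
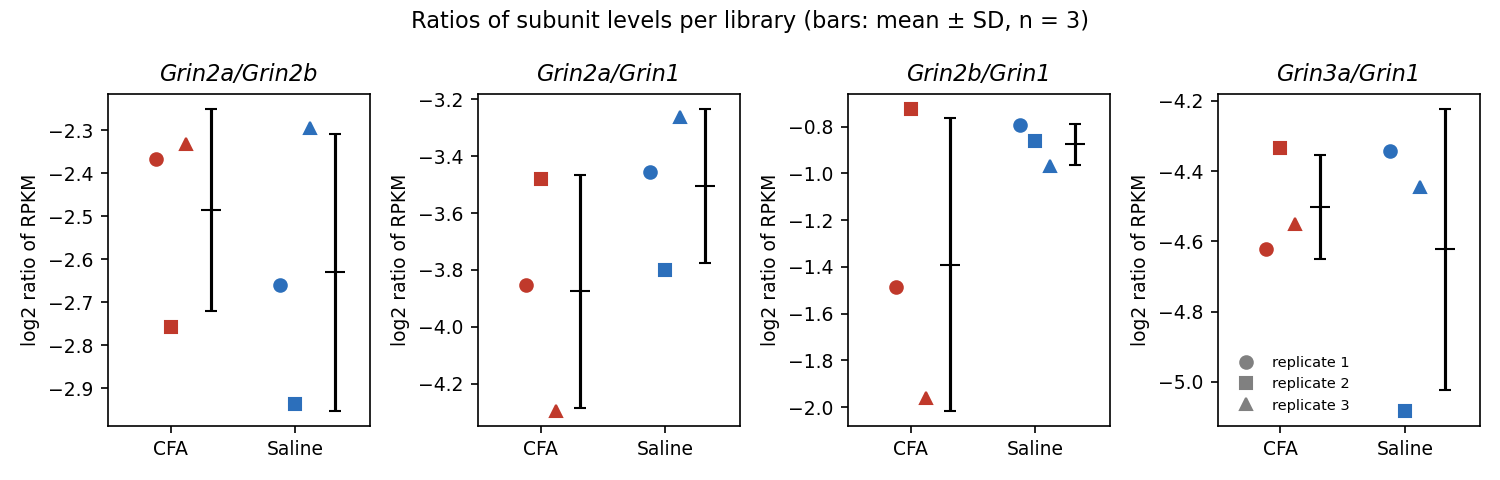
Log2 ratios of subunit levels per exon length in each CFA (red) and saline (blue) library, with the mean ± SD (n = 3) in black and marker shape giving the replicate. The groups overlap in all 4 ratios. For Grin2b/Grin1 the saline points lie within -0.97 to -0.79 and the CFA points spread over -1.96 to -0.72.

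How the subunits varied from library to library was compared by the root mean square (RMS) difference of their log2 CPM, each centred on its own mean over the 6 libraries. Grin2a and Grin2b were the closest pair, with an RMS difference of 0.24, followed by Grin1 and Grin3a with 0.25. Grin1 and Grin2b differed by 0.45, and Grin2c differed from each other tested subunit by 0.98 to 1.37. Grin2a and Grin2b are very long genes, spanning 415 and 444 kb against a median of 22.9 kb over the genes tested, and both were lowest in CFA replicate 3 and highest in saline replicate 3. Over all 1937 tested genes of 100 kb or more, the median centred log2 CPM was 0.058, -0.059 and -0.058 in CFA and -0.027, 0.032 and 0.12 in saline. Among these medians saline replicate 3 was the highest and CFA replicate 3 was close to the lowest. In CFA replicate 3 the centred values of Grin2a and Grin2b were -0.39 and -0.62, much further from 0 than the class median. Grin3a, which spans 184 kb, was highest in CFA replicate 3 (0.22) and lowest in saline replicate 2 (-0.655). The part of gene length in the values of Grin2a, Grin2b and Grin3a was not tested.

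Each subunit was also compared with 10872 other tested genes that averaged 2 or more on the log2 CPM scale. Genes whose symbols end in Rik, start with Gm and a digit, or had been turned into dates were left out. Those with the profile nearest to Grin1 were Mapk8ip3 (RMS difference 0.026), Nomo1 and Zfp574. Those nearest to Grin2b were Acap2 (0.043), Insr and Sgcz, and those nearest to Grin2a were Tnrc6a (0.066), Uvssa and Cog3. For Grin2d they were Eral1 (0.060), Kcnj4 and Inf2, and for Grin3a Brpf3 (0.076), Chtf8 and Rnpepl1. The median RMS difference over all candidates was 0.31 to 0.40. The nearest of so many candidates over only 6 libraries lie far below such a median for any gene. The contrast therefore says nothing about shared regulation, which was not tested.

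Genes that act around the receptor were examined in 5 lists, and no member passed the test in either direction. Of 78 different genes tested 0 were called (0% of all genes), 2 had an unadjusted p under 0.05 (2.56%, against 3.22% of all genes), and 2, Gldc and the kinesin gene Kif17, did not overlap between groups (2.56%, against 7.51%). The median log2 fold change was 0.0050 over the 78 genes.

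The scaffold and trafficking list held the membrane-associated guanylate kinases that anchor the receptor (Dlg1 to Dlg4), CaMKII subunits and the motor Kif17 with its Lin7 and Apba1 adaptors. All 19 members were tested, 11 were positive and 8 negative, and the median was 0.030. Dlg3, which encodes SAP102, was at 227, 143 and 185 CPM in CFA and 134, 145 and 145 CPM in saline. CFA replicates 1 and 3 were above the saline libraries and CFA replicate 2 was among them, with a log2 fold change of 0.39 ± 0.19. Apba1, which encodes the adaptor Mint1, was at 54.7, 27.4 and 53.8 CPM in CFA and 25.5, 27.9 and 42.5 CPM in saline, with a log2 fold change of 0.51 ± 0.28. CFA replicates 1 and 3 were again the highest libraries, as they were for Grin1. Dlg3 and Apba1 were named because their p was the lowest in the list, and the likeness to Grin1 was not tested.

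Of the 19 kinases and phosphatases that modify receptor subunits, among them Src, Fyn, the phosphatase STEP (Ptpn5) and calcineurin (Ppp3ca), all were tested, with 10 positive, 9 negative and a median of 0.0037. Csnk2a2, a catalytic subunit of casein kinase 2, the kinase that phosphorylates GluN2B next to its PDZ-binding end, was at 10.2, 13.4 and 10.5 CPM in CFA and 30.4, 25.7 and 10.7 CPM in saline. Saline replicates 1 and 2 were high and saline replicate 3 lay within the CFA range. Its log2 fold change was -0.98 ± 0.34 (edgeR, unadjusted p 0.0130, adjusted p 1). The other catalytic subunit gene, Csnk2a1, averaged 38.6 ± 7.63 CPM in CFA and 39.1 ± 7.26 CPM in saline. Cdk5r1, the p35 activator of Cdk5, had a log2 fold change of 0.19 ± 0.17.

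Of the 22 genes of co-agonist and kynurenine metabolism, 16 were tested, with 8 positive and 8 negative and a median of 0.0026. Srr encodes serine racemase, which makes D-serine, and was at 61.9, 58.6 and 78.3 CPM in CFA and 82.9, 81.1 and 77.7 CPM in saline, a log2 fold change of -0.28 ± 0.18. The ranges overlapped at CFA replicate 3 and saline replicate 3. Gldc, the glycine decarboxylase of the cleavage system, which is known as an astrocyte enzyme, was at 3.66, 6.26 and 1.73 CPM in CFA and 1.07, 1.11 and 1.72 CPM in saline. Its groups were separate, with CFA replicate 3 hardly above saline replicate 3. Its log2 fold change was 1.57 ± 0.69 (edgeR, unadjusted p 0.0384, adjusted p 1). The astrocyte marker sums were highest in CFA replicate 2, as Gldc was, with or without Aldoc, but they separated the groups only with it, and the part of astrocyte RNA in this value was not tested. Kmo, of the branch of the kynurenine pathway that leads to the NMDA receptor agonist quinolinic acid, and Slc6a5, the glycine transporter of inhibitory terminals, had 0 counts in every library.

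The 13 genes of calcium-dependent signalling downstream of the receptor were all tested, with log2 fold changes of -0.19 to 0.26 and a median of 0.019. Nos1ap, the adaptor of neuronal nitric oxide synthase, averaged 188 ± 26.2 CPM in CFA and 214 ± 29.9 CPM in saline, and the calmodulin gene Calm3 291 ± 41.8 and 250 ± 47.8 CPM. Among 11 regulators linked to transcription of subunit genes, 4 were positive and 7 negative, with a median of -0.021. Nrf1, which encodes the transcription factor nuclear respiratory factor 1, was at 20.9, 16.9 and 18.7 CPM in CFA and 14.8, 17.7 and 7.40 CPM in saline, with overlapping groups and the lowest value in saline replicate 3. Kdm1a, a histone demethylase of the REST corepressor complex, had a log2 fold change of 0.28 ± 0.18. Rest itself, the repressor of neuronal genes, was near the floor, with 0.968 ± 0.420 CPM in CFA libraries and 0.760 ± 0.923 CPM in saline libraries. Tbr1, the deep-layer transcription factor known to activate Grin2b, was at 181 ± 25.5 and 183 ± 39.7 CPM. Rest and Tbr1, like Kif17, Csnk2a1, Kmo and Slc6a5 above, were named after their values were seen.

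**Figure D5:**
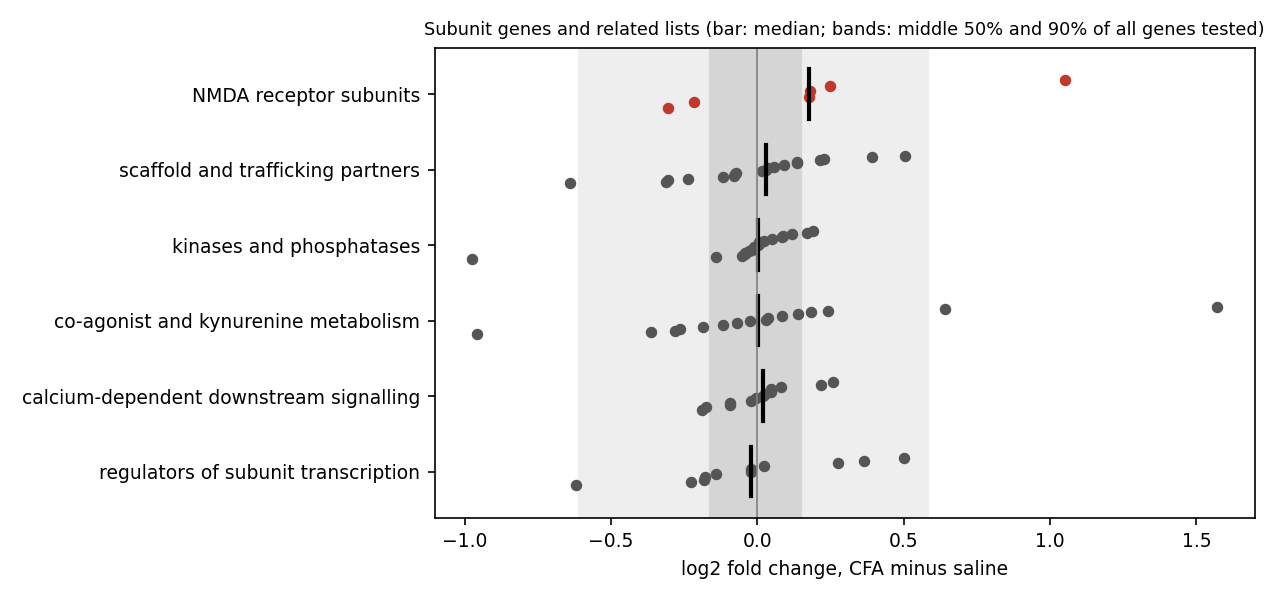
Log2 fold changes of CFA over saline (x axis) for the tested subunit genes (red) and the tested members of 5 related lists (grey), 1 point per gene, with black bars for list medians. The bands hold the middle 50% (-0.16 to 0.15) and 90% (-0.61 to 0.58) of all 13560 genes, and of the subunits Grin2c alone lies outside the wider band.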

How the data were processed

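The authors deposited 1 table of raw counts per gene, with exon intervals and exon length, per the file headers. The submitters' processing notes name mm10, featureCounts 2.0.1 and HISAT2 2.2.1, with SAMtools 1.13, Trim Galore and edgeR 3.32.1 besides. How strand and multi-mapping reads were treated is not given in the sources used here. Per the labels, Smart-seq V4 cDNA was amplified over 9 cycles, without molecular identifiers. Groups and replicate numbers came from sample titles.

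Counts were tested with edgeR 4.0.16 (R 4.3.3): TMM scaling, default filterByExpr, quasi-likelihood test with treatment as the only term, and Benjamini-Hochberg adjustment over 13560 genes at 0.05. The procedure was tested on simulated data. The common biological coefficient of variation was 26.8%. Log2 fold changes are CFA minus saline, with standard errors from the F statistic, and a prior count of 2 went into log2 CPM. RPKM used the deposited exon length. Gene models were compared with GENCODE M21 of the same build. Subunit ratios were compared by two-sided exact permutation tests. No library was a copy of another (the smallest chi-square per degree of freedom for a pair was 16.4).

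Members and lists were chosen with earlier results of these data known. The rule for named genes took the 7 subunits, from each list the 2 with the lowest p, the 3 genes nearest in profile to each subunit (mean log2 CPM 2 or more, for both), the most abundant marker of each cell class and Foxp2; abundant markers are given here as summed lists. Alternatives covered scaling, filters, DESeq2 1.42.0, limma-voom (limma 3.58.1), edgeR's likelihood ratio test, a replicate block and each library left out. Subunit sequences are not reported here.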

Additional observations from a re-analysis of the deposited data

How the results depend on the processing

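No subunit gene was called under any of the 15 alternatives to the gene test. Of 89 recomputed subunit fold changes 87 kept their direction, and the 2 that reversed were Grin2a without saline replicate 3 (leaving out each library gave -0.37 to 0.012) and Grin2d without CFA replicate 2 (-0.0079 to 0.29). Grin2c ranged from 0.59 to 2.91 with a library left out and was 1.71 in limma-voom. Grin2c was not tested under the stricter filter, 5 CPM in 3 libraries. Adjusted p-values over these alternatives ran from 0.579 upwards. Of the 28 ratio differences recomputed without a block 26 kept their direction and 2 reversed, both without saline replicate 2: Grin2a/Grin2b (range -0.0079 to 0.31 over libraries left out) and Grin3a/Grin1 (-0.11 to 0.26). Over all genes the number called was 0 with RLE, upper quartile or library-size scaling, the stricter filter and limma-voom (469 at an unadjusted p under 0.05). It was 9 without a filter on low counts, 5 in DESeq2, 11 in the likelihood ratio test and 0 to 5 with a library left out, the 5 being without saline replicate 3. The causes were not tested. With a replicate block 6 genes were called, none of them a subunit. Deviations of same-numbered libraries correlated at -0.079, 0.025 and -0.069, so the numbers were not treated as pairs, and with 3 balanced pairs the block cannot move a ratio difference. Its exact permutation p-values, which cannot go below 0.25, were 0.5 to 1. With 3 libraries a group, the intervals of the fold changes are wide, and the low counts of Grin2c and Grin3b limit both genes further.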
